A study of Mus musculus with 4 samples.

Results

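A set of 10 genes that encode brakes on mitogen-activated protein kinase (MAPK) signalling were followed in mouse prefrontal cortex (PFC) after knockdown of *Ash1l*, a gene for a histone methyltransferase. They were taken by gene symbol: the MAPK phosphatase genes *Dusp1*, *Dusp4*, *Dusp5*, *Dusp6* and *Dusp14*, the Sprouty genes *Spry1*, *Spry2* and *Spry4*, and the Sprouty-related genes *Spred1* and *Spred2*. All 10 were found among the 23420 gene symbols counted, and all 10 were among the 16232 genes with enough counts to be tested. Bulk RNA-seq was available for 2 control samples, from C57BL6/J mice given GFP-AAV9, and 2 *Ash1L* shRNA samples, from C57BL6/J mice given shRNA_ASH1L-AAV9. AAV9 is an adeno-associated virus, and the shRNA was driven by a U6 promoter, which is active in most cell types, and no source limits it to 1 class of infected cell. Tissue was punched out where GFP was seen, and nothing says that cells without virus were removed. The study's methods give an age of 5 weeks at injection, mice of both sexes, 3 mice pooled in each sample, and a scrambled shRNA as the control virus, where the labels name GFP. The description of the series gives mice of 6 to 8 weeks, 3 with the shRNA and 2 controls.

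MAPK cascades carry signals from growth factor receptors and from calcium entry to the nucleus. Active ERK switches on genes for its own inhibitors, so the transcripts of these inhibitors rise and fall with the activity of the cascade. The dual-specificity phosphatases (DUSPs) remove phosphate from both the threonine and the tyrosine that keep a MAPK active, Sprouty proteins act between the receptor and RAS or RAF, and Spred proteins bring neurofibromin to the membrane, where it inactivates RAS. In cortical neurons several of these genes are known as activity-regulated genes.

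Counts summed to between 14251190 and 35764874 per sample, with control sample 1 the shallowest. Levels are in CPM, which puts libraries of unequal depth on one scale, after TMM normalization, which corrects that size for the makeup of each library. *Ash1l* itself was at 245 and 290 CPM in control samples 1 and 2 and at 216 and 138 CPM in *Ash1L* shRNA samples 1 and 2. The targeted gene was thus below both controls in both *Ash1L* shRNA samples, at 0.806 of the control mean in sample 1 and 0.514 in sample 2. By edgeR it was DOWN, which means an unadjusted p under 0.05 with a level at least 1.2-fold lower, at a log2 change of -0.60 (standard error 0.22, adjusted p of 0.275), but not called without control sample 1 (-0.71), control sample 2 (-0.48) or *Ash1L* shRNA sample 2 (-0.31). Because tissue and not single cells was sequenced, fewer cells of a type and less RNA per cell cannot be told apart in any value given here.

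All 10 are protein-coding genes. In the GENCODE annotation of mm10, the phosphatase genes were *Dusp1* (ENSMUSG00000024190) at chr17:26505590-26562128, *Dusp4* (ENSMUSG00000031530) at chr8:34807297-34819894, *Dusp5* (ENSMUSG00000034765) at chr19:53529109-53542431, *Dusp6* (ENSMUSG00000019960) at chr10:99263231-99267489 and *Dusp14* (ENSMUSG00000018648) at chr11:84048041-84069261. The Sprouty genes were *Spry1* (ENSMUSG00000037211) at chr3:37639947-37644598, *Spry2* (ENSMUSG00000022114) at chr14:105891947-105896819 and *Spry4* (ENSMUSG00000024427) at chr18:38586247-38601415, and the Spred genes *Spred1* (ENSMUSG00000027351) at chr2:117121374-117182279 and *Spred2* (ENSMUSG00000045671) at chr11:19924375-20024026. Their levels spanned more than 10-fold in control tissue. Set per length, as CPM per kilobase of exon of the GENCODE annotation, *Dusp14* (31.2 on average) and *Dusp6* (30.7) were highest, followed by *Spry2* (25.7), *Spred1* (23.9), *Spred2* (9.25), *Dusp1* (6.99), *Dusp4* (3.94), *Spry4* (2.98), *Spry1* (2.2) and *Dusp5* (1.97). The ranges of the 2 controls overlapped between *Dusp14* and *Dusp6*, between *Spry2* and *Spred1*, and between each neighbouring pair from *Dusp4* down to *Dusp5*. *Dusp14* and *Dusp6* changed places between the controls, as did *Spry1* and *Dusp5*, and *Spry4* and *Spry1* were both at 2.05 in control sample 2. Those neighbours could not be ordered. Within each control, *Spry2* was above *Spred1* (28.4 against 25.5, and 23.0 against 22.4) and *Dusp4* above *Spry4* (5.35 against 3.92, and 2.53 against 2.05). In *Ash1L* shRNA sample 2 the order differed, with *Dusp6* at 73.1, *Dusp14* at 39.2 and *Dusp1* at 36.5 CPM per kilobase.

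**Figure D1:**
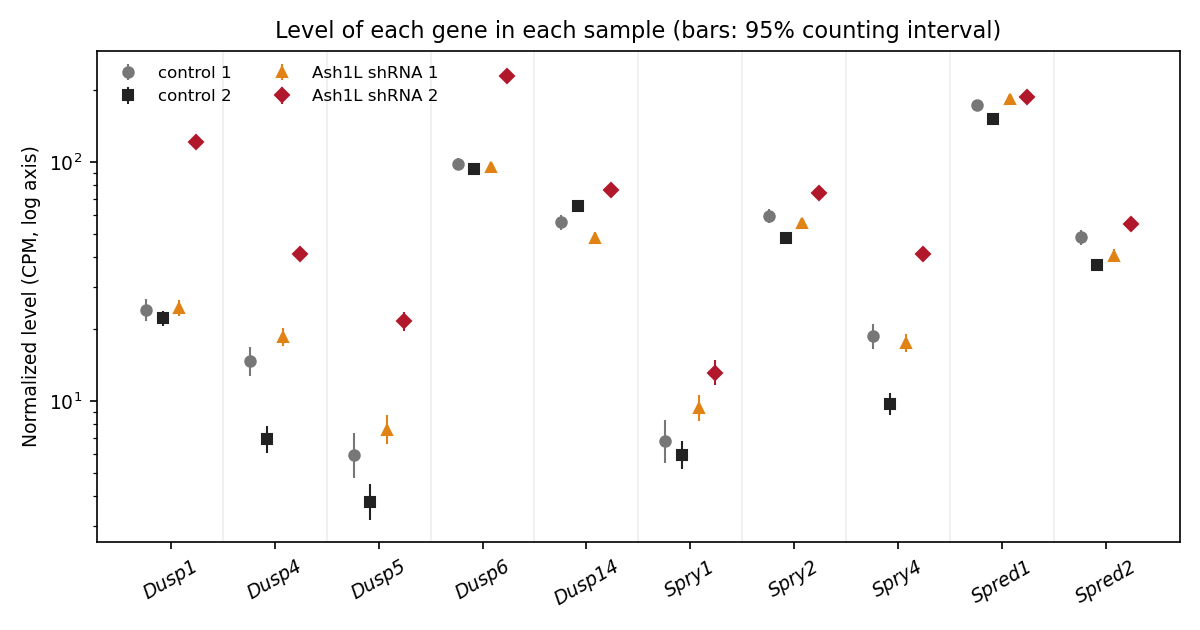
Normalized level in CPM (log axis) of each of the 10 genes in the 4 samples. Points are single samples and bars the 95% counting interval. *Ash1L* shRNA sample 2 (diamonds) is the highest of the 4 samples for all 10 genes.

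The inducible nuclear phosphatases *Dusp1*, *Dusp4* and *Dusp5* were highest in *Ash1L* shRNA sample 2, at 3.82 to 5.22 times the control mean. *Dusp1*, which acts on ERK, p38 and JNK and is among the fastest genes to be induced by neuronal activity, was at 24.1 and 22.2 CPM in control samples 1 and 2, 24.4 CPM in *Ash1L* shRNA sample 1 and 121 CPM in *Ash1L* shRNA sample 2. The first 3 of these values were alike, and sample 2 alone stood apart, at 5.22 times the control mean. Between the groups the log2 fold change was 1.65 (standard error 0.82), which did not pass (edgeR quasi-likelihood F test, Benjamini-Hochberg adjusted p of 0.388 over all genes tested). *Dusp4*, a nuclear phosphatase induced by ERK, had 14.7 and 6.93 CPM in controls, 18.5 CPM in *Ash1L* shRNA sample 1 and 41.2 CPM in sample 2. Both *Ash1L* shRNA samples lay above both controls, but the controls themselves differed by more than 2-fold. *Dusp5*, a nuclear phosphatase specific for ERK, had 5.95 and 3.79 CPM in controls and 7.59 and 21.6 CPM in *Ash1L* shRNA samples 1 and 2, and again the groups did not overlap. Both genes were UP, which here means an unadjusted p under 0.05 with at least a 1.2-fold change, the limits of the study. The log2 fold change was 1.498 (standard error 0.51) for *Dusp4* and 1.60 (standard error 0.53) for *Dusp5*, and the adjusted p-values by edgeR were 0.268 and 0.262.

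The promoters of *Dusp1* and *Dusp5* are shown because these members stood furthest above the controls in *Ash1L* shRNA sample 2 and their promoters held a known signal-responsive element. The sequences are the 250 bases before the RefSeq start site (GRCm38.p6, which shares its coordinates with mm10), read 5′ to 3′ on the gene's strand. *Dusp1* lies on the minus strand, with its promoter at chr17:26508473-26508722, and *Dusp5* on the plus strand, at chr19:53528895-53529144. The RefSeq start of each gene differs from the start in GENCODE. The *Dusp1* window thus lies inside the GENCODE gene (chr17:26505590-26562128), and the *Dusp5* window runs past the GENCODE start at 53529109. Capitals mark the cAMP response element (CRE, TGACGTCA), its half-site TGACG on either strand, and the CArG box bound by serum response factor.
Dusp1: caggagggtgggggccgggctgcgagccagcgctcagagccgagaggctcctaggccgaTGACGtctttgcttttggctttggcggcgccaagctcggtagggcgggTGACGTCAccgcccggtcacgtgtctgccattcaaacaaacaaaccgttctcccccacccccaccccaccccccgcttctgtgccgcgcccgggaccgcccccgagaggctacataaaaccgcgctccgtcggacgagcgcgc
Dusp5: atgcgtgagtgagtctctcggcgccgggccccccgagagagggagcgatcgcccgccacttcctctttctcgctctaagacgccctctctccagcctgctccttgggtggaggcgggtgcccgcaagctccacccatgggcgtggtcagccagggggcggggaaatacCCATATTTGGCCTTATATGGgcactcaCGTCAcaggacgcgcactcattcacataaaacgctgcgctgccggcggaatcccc
*Dusp1* held 1 full CRE, from base -143 to base -136 counted back from the start site, and another half-site further upstream, from -191 to -187. *Dusp5* held 2 CArG boxes side by side, from -82 to -73 and from -72 to -63, and a CRE half-site from -55 to -51. Among 32851 promoters of the same length, 1.55% held a full CRE, 17.8% a half-site (each full CRE contains one) and 1.47% a CArG box.

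Other members with a promoter entry, 8 of the 10 in all, differed from these. The AP-1 motif TGANTCA, found in 6.75% of all promoters, was in none of the 8. The ETS core CCGGAA, in 12% of all promoters on either strand, was in *Dusp14* only, and a CRE half-site was also in *Spred2*. *Dusp6* and *Spry1*, shown for contrast as members at least 2-fold above the control mean in *Ash1L* shRNA sample 2 with no match to any of the motifs searched, had promoters on the plus strand at chr10:99262981-99263230 and chr3:37639697-37639946.
Dusp6: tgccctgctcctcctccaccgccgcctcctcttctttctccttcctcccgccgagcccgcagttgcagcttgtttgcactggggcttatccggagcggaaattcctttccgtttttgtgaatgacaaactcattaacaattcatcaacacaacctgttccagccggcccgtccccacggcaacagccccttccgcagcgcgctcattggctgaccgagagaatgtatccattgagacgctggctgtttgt
Spry1: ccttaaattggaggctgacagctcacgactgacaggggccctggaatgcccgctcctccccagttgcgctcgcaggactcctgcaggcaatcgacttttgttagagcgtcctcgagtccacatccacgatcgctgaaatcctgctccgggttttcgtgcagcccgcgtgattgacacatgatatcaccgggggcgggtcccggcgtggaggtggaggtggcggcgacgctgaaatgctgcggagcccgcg
These matches describe letters in a fixed window and do not show binding.

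*Dusp6*, the cytoplasmic phosphatase specific for ERK, and the most abundant inducible member, resembled *Dusp1*. It was at 98.5 and 93.8 CPM in controls, 95.7 CPM in *Ash1L* shRNA sample 1 and 229 CPM in sample 2. *Ash1L* shRNA sample 1 lay between the controls, and sample 2 was at 2.38 times their mean. Its log2 fold change of 0.75 (standard error 0.40) was not called (by edgeR, adjusted p of 0.388). *Dusp14*, a small atypical DUSP without the MAPK-docking domain of the others, had 55.9 and 65.4 CPM in controls and 48.3 and 76.3 CPM in *Ash1L* shRNA samples 1 and 2. The *Ash1L* shRNA samples lay on opposite sides of the controls, and the fitted log2 fold change was 0.04 (standard error 0.23).

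Of the Sprouty genes, *Spry1* had the smallest spread within groups relative to its change. It was at 6.80 and 5.96 CPM in controls and at 9.35 and 13.1 CPM in *Ash1L* shRNA samples 1 and 2. Both *Ash1L* shRNA samples were above both controls, by 1.47 and 2.06 times the control mean, and *Spry1* was UP at a log2 fold change of 0.82 (standard error 0.24, adjusted p by edgeR 0.260). *Spry4* had 18.6 and 9.75 CPM in controls, 17.5 CPM in *Ash1L* shRNA sample 1 and 41.3 CPM in sample 2. *Ash1L* shRNA sample 1 lay between the controls, which differed from each other almost as much as *Dusp4* did, and the log2 fold change of 1.07 (standard error 0.50) was not called. *Spry2*, the most abundant Sprouty gene in this tissue, had 59.3 and 48.0 CPM in controls and 55.5 and 73.8 CPM in *Ash1L* shRNA samples 1 and 2, with a log2 fold change of 0.27 (standard error 0.18) that was not called. The adjusted p was 0.344 for *Spry4* and 0.461 for *Spry2* by edgeR.

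The Spred genes differed least between samples. *Spred1* was at 173 and 152 CPM in controls and at 183 and 187 CPM in *Ash1L* shRNA samples 1 and 2. The groups did not overlap and the *Ash1L* shRNA samples differed from each other by no more than counting error, yet the log2 fold change was 0.19 (standard error 0.12) and was not called. *Spred2* was at 48.3 and 37.2 CPM in controls and at 40.6 and 55.1 CPM in *Ash1L* shRNA samples 1 and 2, with a log2 fold change of 0.17 (standard error 0.20). The adjusted p was 0.439 for *Spred1* and 0.693 for *Spred2* by edgeR.

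Over the 10 genes, 3 were UP (*Dusp4*, *Dusp5* and *Spry1*) and 0 were DOWN, against 8.61% of all tested genes UP, 8.28% DOWN and 16.9% in either direction. By edgeR 3 members had an unadjusted p under 0.05 and 0 passed an adjusted limit of 0.05, which 1 gene of all those tested (0.00616%) passed. With DESeq2, the tool of the study, *Spry4* was also UP (4 members, against 7.55% of all genes). *Dusp4* and *Dusp5* then had adjusted p-values of 0.030 and 0.042, past a limit that 2.59% of all genes passed. The likelihood ratio test of edgeR called 5 members UP (against 8.72% of all genes), *Dusp1* being the addition, and 0 passed the adjusted limit (against 2.95%).

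The 3 calls also stood under 3 other scalings of the libraries, RLE, upper-quartile and library-size, with 3 members UP against 8.60%, 9.33% and 10.1% of all genes. They stood with at least 10 counts required in every sample (8.55% of all genes) and at a 1.5-fold limit (4.71%). Without the filter on low counts, 1 member was UP (against 7.83%), namely *Spry1*, while *Dusp4* and *Dusp5* had unadjusted p-values of 0.097 and 0.050 by edgeR. Blocking on the replicate number left 2 UP (against 6.48%), and crossing the numbers gave 4 UP (against 9.49%).

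All 10 fitted log2 fold changes were above 0, with a median of 0.79, whereas 49.7% of all tested genes were above 0 with a median near 0. Both *Ash1L* shRNA samples exceeded both controls for 5 members, namely *Dusp1*, *Dusp4*, *Dusp5*, *Spry1* and *Spred1*, against 26.5% of all genes, and 0 members were below both controls in both, against 26.8%. In either direction the groups did not overlap for 53.2% of all genes. The members were chosen with results of these samples known, so these shares describe the list.

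Each *Ash1L* shRNA sample was also set against each control sample, with a 95% interval for counting error alone, which leaves out the spread between replicate samples. For *Ash1L* shRNA sample 2, all 20 comparisons over the 10 genes lay above 0. For sample 1, 10 of 20 lay above 0, 3 lay below 0 and 7 included 0. *Dusp4*, *Spry1* and *Spred1* were above 0 in all 4 of their comparisons. Within the control group the interval excluded 0 for 7 of the 10 genes, in 6 of them with control sample 2 the lower, so differences of this kind also arose between control samples. The largest control difference was that of *Dusp4*, with a log2 of -1.08 for control sample 2 against 1, and *Dusp4* was the only member at least 2-fold higher in control sample 1 than in control sample 2 (1.59% of all genes).

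**Figure D2:**
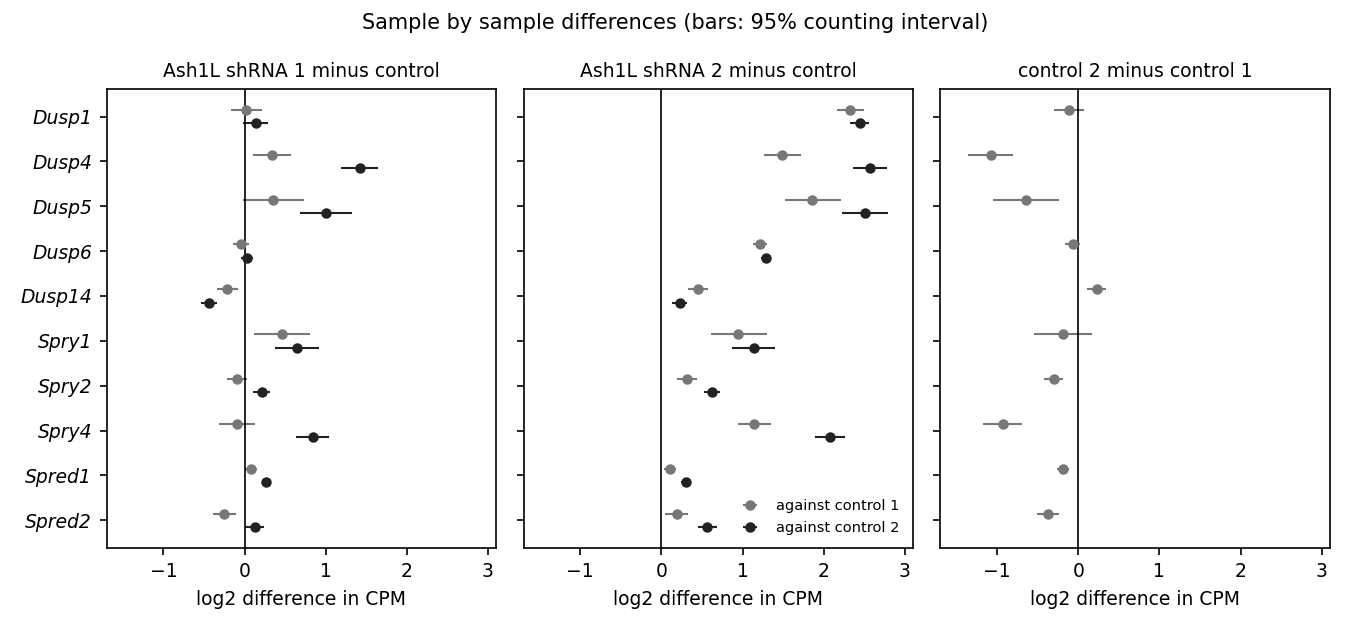
Log2 difference in CPM for *Ash1L* shRNA sample 1 and sample 2 against each control, and between the controls, with 95% counting intervals. In the middle panel all 20 intervals lie above 0, and in the left panel the values of *Dusp1* and *Dusp6* include 0.

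The size of the change thus differed between the *Ash1L* shRNA samples. *Dusp1*, *Dusp4*, *Dusp5*, *Dusp6* and *Spry4* were at least 2-fold higher in sample 2 than in sample 1, which held for 4.10% of all tested genes. The same 5 genes were at least 2-fold above both controls in sample 2 (4.65% of all genes), and 0 of the 10 were so in sample 1 (1.81% of all genes). All 10 genes were above both controls in sample 2, as were 41.7% of all genes, and 5 were in sample 1, as were 36.6% of all genes. All 10 were higher in sample 2 than in sample 1, as were 47.7% of all genes. The ratio of sample 2 to sample 1 ran from 1.02 in *Spred1* to 4.94 in *Dusp1*.

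The calls changed with each sample left out. In these fits a group of 1 sample is assumed to vary like the other group. Without *Ash1L* shRNA sample 2, 0 members were UP (against 6.25% of all genes), 0 passed the adjusted limit (against 0.216%), 7 of 10 log2 fold changes were above 0, and the median was 0.13. *Dusp1* was then at 0.08 and *Dusp6* at -0.01, while *Dusp4*, *Dusp5* and *Spry1* were at 0.83, 0.68 and 0.56, with unadjusted p-values by edgeR of 0.138, 0.068 and 0.050. Without *Ash1L* shRNA sample 1, 7 members were UP (against 14.4% of all genes), and *Dusp1*, *Dusp5*, *Dusp6* and *Spry1* had adjusted p-values by edgeR of 1.16e-04, 0.0031, 0.0013 and 0.020, where 15.2% of all genes passed the adjusted limit. Without control sample 1, 4 were UP (5.07% of all genes), and without control sample 2, 0 were UP (2.57% of all genes).

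**Figure D3:**
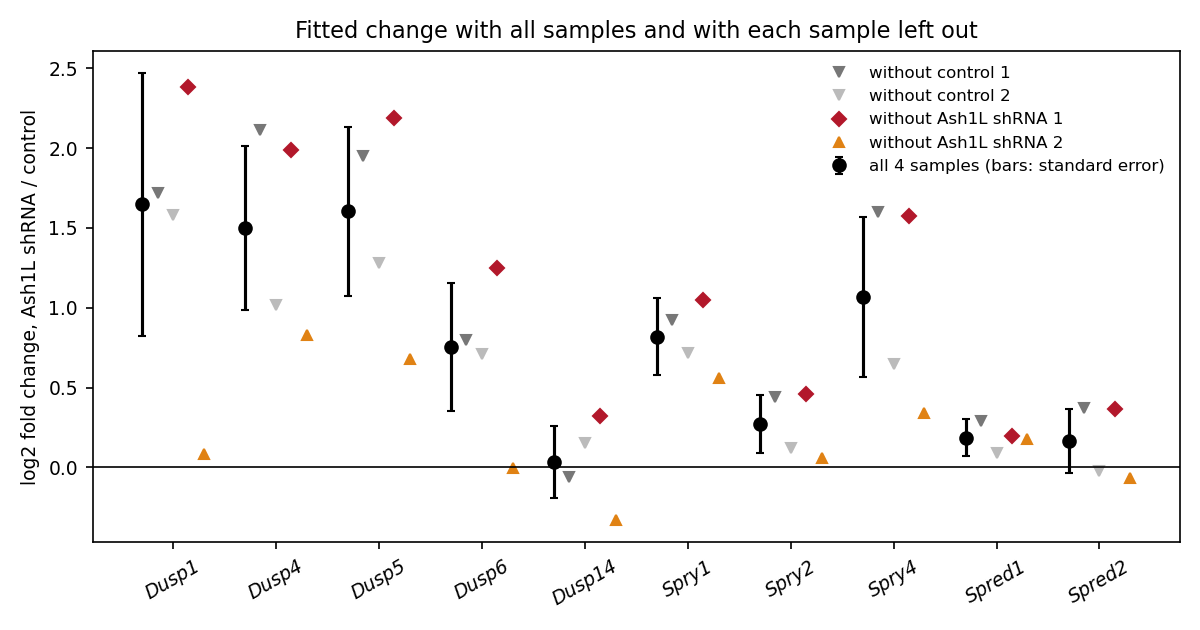
Log2 fold change of each gene with all 4 samples (black, bars show the standard error) and with each sample left out. Without *Ash1L* shRNA sample 2 (upward triangles) *Dusp1* and *Dusp6* lie near 0 and *Dusp14* is at -0.33.

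Immediate early genes, which are switched on within minutes of neuronal firing without new protein synthesis, were also highest in *Ash1L* shRNA sample 2. Of 13 on a fixed list, 13 were above both controls in *Ash1L* shRNA sample 2 (41.7% of all genes) and 1 was in sample 1 (36.6% of all genes). In sample 1, 9 of the 13 were below both controls, as was 1 of the 10 feedback genes. The share of all genes below both controls in sample 1 was not counted, so these counts only describe the lists. The median of the 13 in sample 1 was 0.732 of the control mean, against 1.09 for the feedback genes. *Fos* was at 39.3 and 27.5 CPM in controls, 27.9 CPM in *Ash1L* shRNA sample 1 and 630 CPM in sample 2. *Arc*, which encodes a synaptic protein, was at 257 and 182 CPM in controls, 126 CPM in *Ash1L* shRNA sample 1 and 953 CPM in sample 2. In sample 2, 12 of the 13 were at least 2-fold above sample 1 (4.10% of all genes), with a median ratio of 7.59, against a median of 1.90 for the 10 feedback genes. By the quasi-likelihood F test of edgeR 0 of the 13 passed either limit, adjusted or unadjusted, whereas *Fos* was UP with DESeq2 (unadjusted p of 0.047) and with the likelihood ratio test of edgeR (unadjusted p of 0.023). Whether the immediate early genes have a part in the levels of the feedback genes was not tested.

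**Figure D4:**
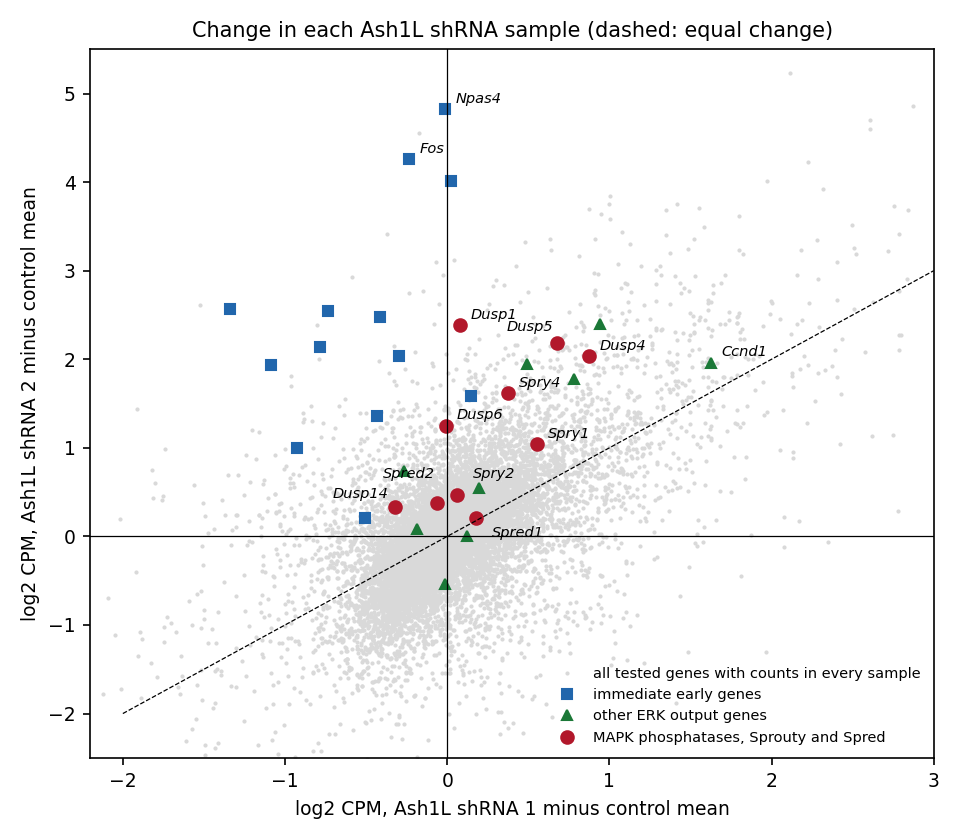
Log2 CPM relative to the mean of the controls in *Ash1L* shRNA sample 1 (horizontal) and sample 2 (vertical) for the 10 genes, the immediate early genes, other ERK output genes and all 16189 tested genes with counts in every sample, of which 125 fall outside the axes. All 10 feedback genes lie above the horizontal line at 0 and on or above the dashed line of equal change.

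The remaining genes of the pathway were taken from fixed lists that held 83 tested genes with the immediate early genes included, of which 8 were UP and 7 were DOWN, shares near the 8.61% and 8.28% of all tested genes. Other ERK output genes, those whose transcripts are used to read ERK activity, included 4 UP genes of 9, against 8.61% of all genes. *Ccnd1*, which encodes cyclin D1, had 107 and 62.9 CPM in controls and 252 and 319 CPM in *Ash1L* shRNA samples 1 and 2. It was far above both controls in both samples, at a log2 fold change of 1.76 (standard error 0.27, adjusted p by edgeR 0.240). *Ier3*, *Epha2* and *Errfi1*, which encodes a feedback inhibitor of the EGF receptor, were UP with log2 fold changes of 1.36, 1.85 and 1.39. *Ier3* was at 8.71 and 7.53 CPM in controls and 13.9 and 27.6 CPM in *Ash1L* shRNA samples 1 and 2, *Epha2* at 2.34 and 1.97 CPM against 4.13 and 11.3 CPM, and *Errfi1* at 35.9 and 32.7 CPM against 48.3 and 132 CPM. All 3 were above both controls in both samples and highest in sample 2. Without sample 2 they were still UP, at 0.79, 0.96 and 0.50, but without control sample 2 none of the 3 was called (1.25, 1.71 and 1.32), and *Errfi1* was not called without control sample 1 (1.48) or without the filter on low counts. The other 5, *Phlda1*, *Epha4*, *Etv4*, *Etv5* and *Il17rd*, were not called, with log2 fold changes from -0.25 to 0.38. *Etv5*, a transcription factor downstream of FGF signalling, was at 149 and 139 CPM in controls and 156 and 144 CPM in *Ash1L* shRNA samples 1 and 2.

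Phosphatases outside the 10 did not share one direction. Of 6 further typical MAPK phosphatases, 1 was UP and 1 was DOWN, against 8.61% and 8.28% of all genes. *Dusp9* was UP, from 1.49 and 0.74 CPM in controls to 2.63 and 5.31 CPM in *Ash1L* shRNA samples 1 and 2. *Dusp8*, a phosphatase for JNK and p38 that is abundant in brain, was DOWN, from 95.2 and 97.7 CPM in controls to 76.0 and 52.3 CPM. Among 10 atypical DUSPs, *Dusp3* was DOWN at a log2 change of -0.51 (standard error 0.16), and the other 9 were not called. That 1 of 10 was near the 8.28% of all genes that were DOWN. *Spry3* and *Spred3*, the remaining family members, were not called, at log2 fold changes of 0.27 and -0.07.

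In the cascade that these genes restrain, 1 of 18 tested genes from RAS to ERK was called, against 16.9% of all genes. Of the 18, 5 had log2 fold changes above 0 (against 49.7% of all genes), with a median of -0.12, and the scaffold gene *Ksr2* was DOWN, from 34.7 and 34.8 CPM in controls to 24.8 and 22.3 CPM in *Ash1L* shRNA samples 1 and 2. Of 11 p38 and JNK pathway kinases, 1 was DOWN, a share near the 8.28% of all genes. It was *Mapk14*, which encodes p38 alpha, at a log2 change of -0.53 (standard error 0.15). Receptor tyrosine kinases held 3 UP and 3 DOWN genes of 14, against 8.61% and 8.28% of all genes. *Fgfr3*, an FGF receptor typical of astrocytes, was DOWN at -0.95 (standard error 0.15), and *Erbb4*, typical of interneurons, was DOWN at -0.58. *Met*, the hepatocyte growth factor receptor, was UP at 1.40 (standard error 0.44), but was not called without *Ash1L* shRNA sample 2 (0.75), without control sample 1 (1.08), without the filter on low counts or with the replicate numbers crossed. *Kdr*, a VEGF receptor of endothelial cells, was UP at 0.63. By edgeR 0 of the 83 genes passed the adjusted limit, and 15 were called at the unadjusted one, a share near the 16.9% of all tested genes.

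With each sample left out in turn, *Ccnd1*, *Fgfr3*, *Ksr2* and *Kdr* kept their calls in all 4 fits. Without control sample 2, *Dusp9* (1.40), *Mapk14* (-0.43) and *Erbb4* (-0.54) were not called, and *Dusp8* and *Dusp3* were not called with either control left out, at -0.60 and -0.49 without control sample 1 and -0.57 and -0.52 without control sample 2.

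**Figure D5:**
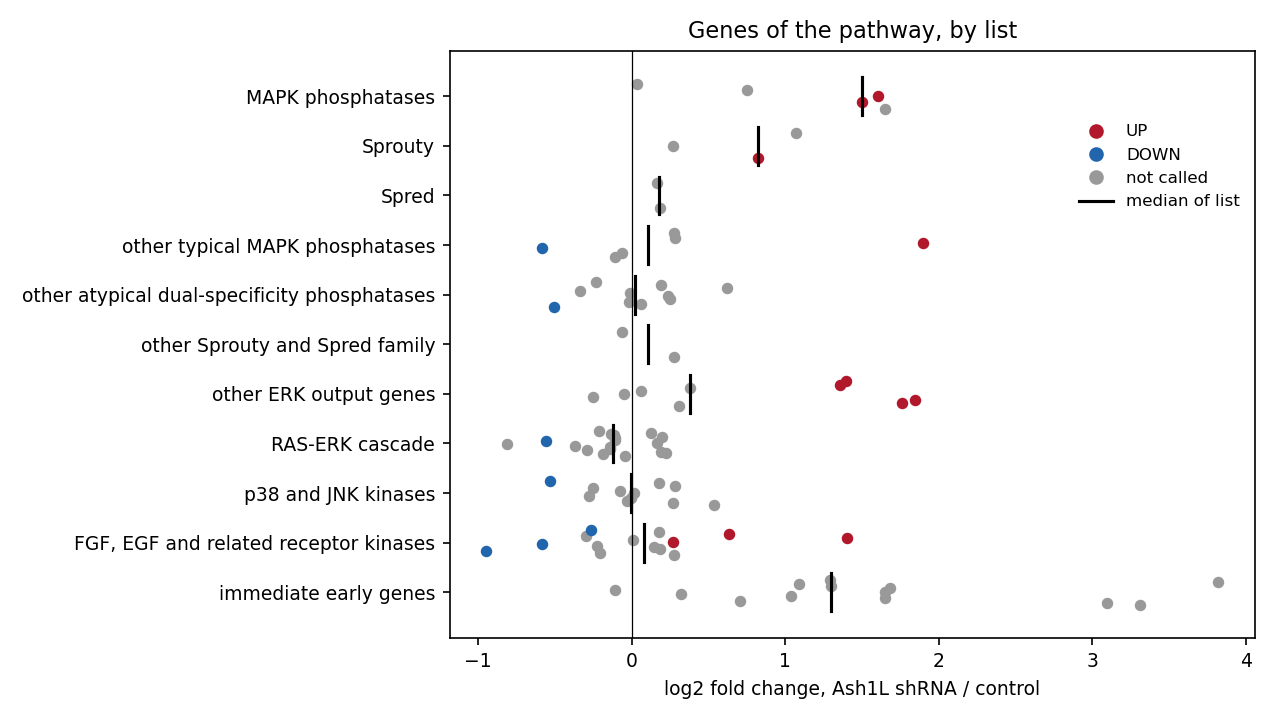
Log2 fold change of each tested gene, by list, with UP genes in red, DOWN genes in blue and the list median as a black line. The MAPK phosphatase list has a median of 1.498, the Sprouty list one of 0.82, and the RAS-ERK cascade list one of -0.12.

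Markers of cell classes moved as well. In *Ash1L* shRNA sample 2, all 6 microglia markers and all 6 oligodendrocyte markers were below both controls. The share of all genes below both controls in sample 2 was not counted. The microglia sum in sample 2 was 364 CPM, against 711 and 732 CPM in controls and 899 CPM in *Ash1L* shRNA sample 1. All 6 excitatory neuron markers were below both controls in both *Ash1L* shRNA samples (26.8% of all genes), with sums of 2277 and 1903 CPM against 2467 and 2932 CPM. *Tbr1*, a marker of deep cortical layers, is among them, and all 6 were detected in every sample. Of the 6, 3 were DOWN (8.28% of all genes). *Cux2* hardly differed, at 76.2 and 76.1 CPM in *Ash1L* shRNA samples 1 and 2 against 76.4 and 80.8 CPM in controls. Markers of striatal neurons, a class from outside the PFC, summed to 58.2 and 62.6 CPM in controls. The sums were 69.7 CPM in *Ash1L* shRNA sample 1 and 133 CPM in sample 2. Of the 5 tested, 4 were above both controls in sample 1 (36.6% of all genes) and 4 in sample 2 (41.7% of all genes). *Gpr6* was below both controls in both samples (26.8% of all genes). Most of the sum came from *Ppp1r1b* and *Rgs9*, at 72.9 and 51.5 CPM in sample 2. Endothelial, mural and oligodendrocyte precursor sums ranged from 230 to 262, 141 to 151 and 231 to 234 CPM in controls, and from 247 to 274, 158 to 172 and 221 to 298 CPM in *Ash1L* shRNA samples. All 6 oligodendrocyte precursor markers were above both controls in *Ash1L* shRNA sample 1 (36.6% of all genes). In sample 2, 3 of them were (41.7% of all genes). T and B cell markers summed to 9.78 and 16.6 CPM in controls and 3.29 and 2.70 CPM in *Ash1L* shRNA samples. All 6 of them were below both controls in both samples (26.8% of all genes). Astrocyte sums were 4646 and 4973 CPM in controls against 3891 and 3023 CPM, and interneuron sums 655 and 601 CPM against 542 and 557 CPM. Neither list moved as a whole. *Slc1a2* made up most of the astrocyte sum, 4 of the 6 astrocyte markers were DOWN (8.28% of all genes), and *Gfap* and *Aqp4* had log2 fold changes of 0.0007 and 0.11. Of the interneuron markers, 3 of 6 were DOWN (8.28% of all genes) and *Gad2* had a log2 fold change of 0.28. Oligodendrocyte sums were 2503 and 2818 CPM against 2696 and 2371 CPM, and leptomeningeal sums 90.9 and 133 CPM against 121 and 117 CPM. No marker gene with a counted symbol was at 0 in any sample, and the part of these cell classes in the levels of the feedback genes was not tested.

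Among the genes most like *Dusp1*, the member with the largest log2 fold change, were *Cd44* and *Mir335*, by the root-mean-square difference of log2 CPM from each gene's own mean over the 4 samples. The differences were 0.17 and 0.18, and 19 genes in all lay within 0.25. *Mir335* rested on few reads, with 6 and 20 counts in controls and 16 and 60 in *Ash1L* shRNA samples 1 and 2. *Cd44*, which encodes a hyaluronan receptor, was at 10.6 and 11.5 CPM in controls, 12.05 CPM in *Ash1L* shRNA sample 1 and 46.3 CPM in sample 2.

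Exons of *Dusp1*, *Dusp5* and *Spry1* overlap a gene on the opposite strand in GENCODE (*Ergic1*, AC137853.2 and *Gm42922*), and no source used here states whether the counting used strand, so their counts could include reads of those genes. The same holds for *Ash1l*, whose exons overlap *Dap3* on the opposite strand.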

How the data were processed

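The authors sequenced stranded libraries depleted of ribosomal RNA, used RNA STAR on mm10 and then featureCounts, and deposited raw counts per gene symbol. The labels also name Cutadapt and TopHat2, but the file headers name STAR. Here edgeR 4.0.16 (R 4.3.3) was run with filterByExpr, TMM and a robust quasi-likelihood fit (glmQLFit, glmQLFTest), and p-values were adjusted by Benjamini-Hochberg over 16232 genes. A standard error is the size of the log2 fold change over the square root of its F. Counting intervals (95%) are exact, Poisson for a level and binomial for a ratio, and cover counting error only. The study's methods describe the samples as pools of mice, which the series description does not bear out. The p-values measure the spread between samples.

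Alternatives were DESeq2 1.42.0, the likelihood ratio test, 3 other scalings, 2 other filters, the replicate block, another fold limit and leaving out each sample. The scripts were tested on simulated counts. Replicates differed by far more than counting error (chi-square per degree of freedom of 14.8 and 42.3). GENCODE vM21 gave exon lengths and RefSeq the promoters. The members, lists and motifs were chosen with earlier results of these data known. Outside the members, up to 4 called genes of each list were named, by unadjusted p, or where none was called the 2 with the highest level, and the 3 genes most like *Dusp1*, of which 1 is not reported here. *Etv5* and the other uncalled ERK output genes were named after their values were seen.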

Additional observations from a re-analysis of the deposited data

How the results depend on the processing

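With 3 members UP and 0 DOWN in the reported fit, the number UP was 5 under edgeR's likelihood ratio test and 1 with no filter beyond 1 count, and it ran from 0 to 7 with each sample left out. The cause was not tested. Genes UP numbered 765 and genes DOWN 491 at a 1.5-fold limit, and with each sample left out they ran from 423 to 2368 and from 306 to 2718. Genes at an adjusted p under 0.05 numbered 1 in the reported fit, 421 with DESeq2, 479 with the likelihood ratio test, 34 without the filter, 0 with the replicate block and 16 with the crossed block, and they ran from 0 to 2502 with each sample left out. Listed pathway genes UP numbered 8 in the reported fit and 5 without the filter, and ran from 3 to 27 with each sample left out. Those DOWN numbered 7 in the reported fit, 2 at the 1.5-fold limit and 11 with the crossed block, and ran from 2 to 14.

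The replicate block called 2 members UP (*Dusp5* and *Spry1*), while *Dusp4* had an unadjusted p of 0.054 in edgeR's quasi-likelihood test. Same-numbered samples share only a number, and their departures from their group mean correlated at -0.11. The crossed block, added after that correlation was seen, called 4 members UP. All 10 members kept a log2 fold change above 0 under DESeq2, the likelihood ratio test, each scaling, each filter and both blocks. Signs turned only with samples left out. With each sample left out, *Dusp6* ran from -0.0050 to 1.25, *Dusp14* from -0.33 to 0.32 and *Spred2* from -0.065 to 0.37, the lowest value in each case being that without *Ash1L* shRNA sample 2. *Dusp14* was also below 0 without control sample 1 and *Spred2* without control sample 2. Of genes outside the 10, *Spred3* ran from -0.27 to 0.13, *Arc* from -0.80 to 2.11 and *Fos* from -0.25 to 4.25. Among the 10 members, *Dusp5* and *Spry1* rested on fewer than 100 counts in control sample 1, with 84 and 96, so counting error was largest there. Outside the 10, the UP genes *Dusp9* and *Epha2* rested on fewer still, with 21 and 26 counts and 33 and 69 counts in control samples 1 and 2.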
